A study of Rattus norvegicus with 13 samples.

Results

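The material harvested from the neuronal compartment of rat cortical cultures was compared with uninjured axons from the same kind of device, gene by gene. Both groups were uninjured and were kept for 13 days in Neurobasal E medium with B27 in a compartmentalised microfluidic platform, where axons grow through narrow channels into a chamber away from the cell bodies. The comparison uses 10 of the 13 arrays of the series, 3 of neurons and 7 of uninjured axons, and 9 of these hold a measurement, because uninjured array 7 reads 1 for every probe set. Each array carried polyadenylated RNA pooled from 3 platforms and amplified in 2 rounds before hybridisation to a rat GeneChip. Strain, sex and age of the animals are not given in the labels. The neuronal compartment is not a purified cell type: it holds cell bodies, dendrites, the first stretch of the axons and any glia. The deposited value is a ratio to a reference that the labels do not name. Uninjured axons were assumed to be that reference, on which each direction below depends. A log2 ratio of 1 means a 2-fold higher value in neurons.

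An axon is supplied with protein by transport from the cell body and also by messenger RNAs that are carried into it and translated there. Transcripts for ribosomal proteins, translation factors, the mitochondrial respiratory chain and the cytoskeleton are known from many studies of axonal RNA, while nuclear noncoding RNAs and dendritic receptors belong to the cell body compartment.

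Of 14217 genes, 59.9% passed the limma test at an adjusted p under 0.05, 36.9% as higher in neurons and 23% as higher in axons. A difference of 2-fold or more was seen in 30% of genes toward neurons and in 9.17% toward axons. All 3 neuron arrays lay above all 6 measured uninjured arrays in 41.8% of genes and below all of them in 30.3%. At the far end, 970 genes were at least 8-fold and 71 at least 32-fold higher in neurons, while 25 genes were at least 4-fold higher in axons. Errors given with a log2 value are standard errors of the fit (SE, n = 3 neuron arrays), and adjusted p-values are limma's, by Benjamini and Hochberg over all genes. For single genes the ratio in neuron arrays 1, 2 and 3 is given in that order, beside the lowest and highest of the 6 uninjured arrays, whose median is 1 or close to 1 by construction.

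A ratio cannot tell a transcript from background. A scale for this was set with 331 genes that are known from tissues other than cortex and were presumed silent here: genes of smell, taste and pheromone receptors, skin and gut lining, Hox clusters, lens and photoreceptors, liver and pancreas, lymphocytes, muscle, and testis. Their median lay at log2 -0.78, with 5th and 95th percentiles of -1.49 and -0.06. Of these genes 217 passed as higher in axons and 1 passed as higher in neurons, *Tekt1*, a protein of cilia (ratios 1.89, 2.08 and 2.66, uninjured 0.864 to 1.38, log2 1.13 ± 0.28, adjusted p = 0.00651). The lowest was the muscle myosin gene *Myh1* (log2 -2.79 ± 0.44, adjusted p = 0.000691). Of the genes higher in axons, 3167 (96.8%) lay at or above the 1st percentile of this list, log2 -1.62, and so within the range of genes presumed silent. Over all genes, 5735 (40.3%) fell between its 5th and 95th percentile and 8296 (58.4%) above it. Shifting each neuron array so that the presumed silent genes centre on 0 adds 0.79 to the mean log2 value of a gene, and shifting the median gene to 0 takes 0.22 away.

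**Figure D1:**
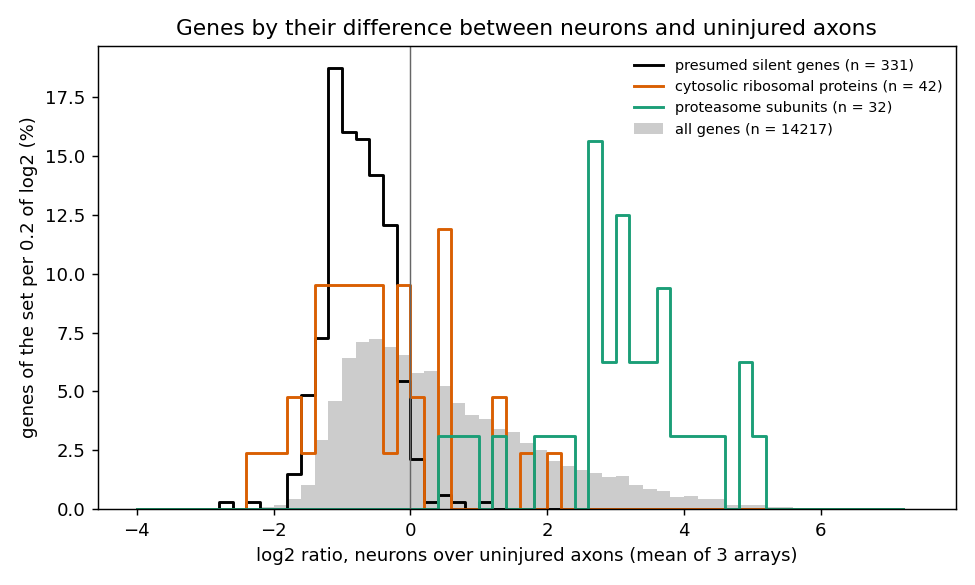
Share of genes (vertical axis, percent of each set per 0.2 of log2) by the mean log2 ratio of the 3 neuron arrays over uninjured axons (horizontal axis). Grey bars are all 14217 genes, the black line 331 presumed silent genes, the orange line 42 cytosolic ribosomal protein genes and the green line 32 proteasome genes; the ribosomal genes overlap the silent ones and the proteasome genes do not reach below log2 0.51.

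Depth is not defined for these ratios, and the number of arrays limits the precision. Across genes, which are not independent replicates, the log2 ratios of neuron arrays 1 and 3 correlated at r = 0.984, and array 2 correlated with them at 0.949 and 0.930. The hybridisation controls, transcripts added to the sample in a known amount, read 0.397, 1.10 and 0.215 in the neuron arrays against 0.956 to 1.18 in the uninjured arrays. The middle control probe sets for beta-actin read 164, 100 and 179, and those for GAPDH 47.7, 20.3 and 53.1. The 3′ probe set of GAPDH read 13.7, 7.19 and 16.6, and the 5′ probe set 64.1, 24.0 and 70.8. For beta-actin the order was the opposite, with the 3′ probe set at 71.2, 38.4 and 80.1 and the 5′ probe set at 41.4, 28.6 and 52.7. Neuron array 2 was the lowest of the 3 for beta-actin and GAPDH and the highest for the hybridisation controls. The bacterial polyA controls were flat at 1.03, 1.04 and 1.02. Hexokinase was lowest in array 2 at its 3′ (5.55, 3.96 and 7.61) and 5′ probe sets (1.07, 1.02 and 1.17). Its middle probe set was highest in array 2 (0.729, 0.928 and 0.660). Among the uninjured arrays, array 4 was the highest of 6 in 42.6% of the genes at least 8-fold higher in neurons, and in 9.67% of the presumed silent genes. Whether replicate arrays stem from separate cultures is not stated in the labels, and the spread behind the p-values may be technical.

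Gene lists differed in their medians by function. The 14-3-3, calmodulin and septin genes, which encode abundant signalling adaptors and filaments, had the highest list median, log2 3.72, and 16 of 17 passed as higher in neurons. Glycolysis (median 3.43), the citric acid cycle (3.15), the proteasome (3.12), the cytosolic chaperonin with prefoldin (2.98), the vacuolar proton pump (2.86) and cholesterol synthesis (2.83) followed. The lowest medians were those of presumed silent lists and of microglia markers (-0.95), and of the lists of cell functions the cytosolic ribosomal proteins were lowest (-0.61), below the median of all genes (0.22). Their median differed from that of the presumed silent genes by 0.54, -0.81 and 0.75 in the 3 neuron arrays, and turned to 0.18 when the silent genes were centred on 0. Small list medians were found for glutamate and GABA receptors (0.33), dividing cell markers (0.23), respiratory complexes II to IV (0.21), voltage-gated channels (0.18), amino acid transporters (0.07) and oligodendrocyte lineage markers (0.06). With the median gene set to 0, the lists of complexes II to IV, channels, transporters and oligodendrocyte markers fall at -0.01, -0.04, -0.15 and -0.16, so their sign depends on the scaling.

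**Figure D2:**
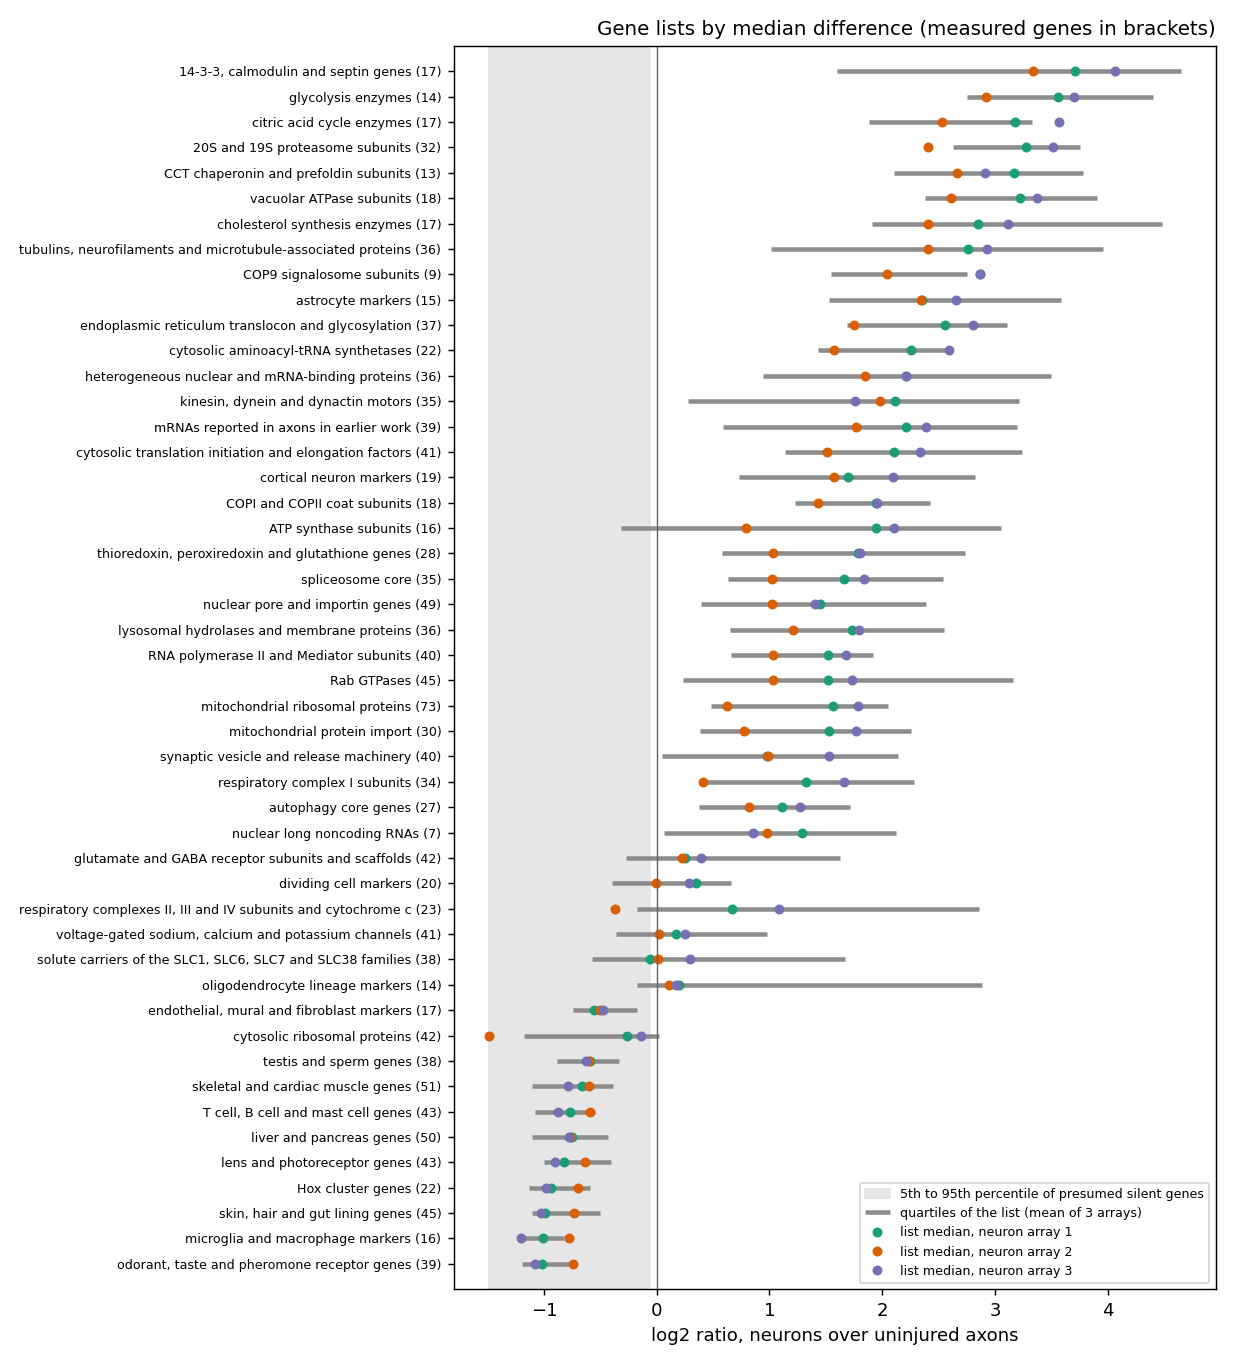
Gene lists (rows, measured genes in brackets) by log2 ratio of neurons over uninjured axons (horizontal axis). Points are the list median in each of the 3 neuron arrays, grey bars the quartiles of the gene means, and the shaded band the 5th to 95th percentile of presumed silent genes; list medians run from -0.99 for smell, taste and pheromone receptors to 3.72 for 14-3-3, calmodulin and septin genes, and the medians of the cytosolic ribosomal proteins are -0.26, -1.49 and -0.14 in arrays 1 to 3.

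The machinery of translation was divided. The synthetases that load transfer RNAs passed toward neurons in 20 of 22 genes (median log2 2.23), and initiation and elongation factors in 33 of 41 (1.97). Mitochondrial ribosomal proteins passed in 39 of 73 cases (1.33), and cytosolic ribosomal proteins in 1 of 42 (2.38%, against 36.9% of all genes). Of these 42, 10 were higher in axons, and this share of 23.8% is near the 23% of all genes. It was 16 genes with the median gene set to 0 and 2 with the silent genes centred on 0. In the main fit 31 of the 42 passed in neither direction. The median SD of this list over the neuron arrays was 0.76, against 0.22 for all genes, a spread that makes passing harder either way. The synthetases exceeded the cytosolic ribosomal proteins by 2.51, 3.06 and 2.74 on the log2 scale in the 3 neuron arrays (mean of the difference of list medians 2.77 ± 0.27, SD, n = 3). The factors exceeded them by 2.36, 3.00 and 2.47, and the mitochondrial ribosomal proteins by 1.83, 2.11 and 1.92 (mean 1.95 ± 0.14, SD). These differences within an array do not depend on how the array is scaled.

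Asparaginyl-tRNA synthetases lay at both ends of the comparison. *Nars1*, the cytosolic enzyme, read 22.3, 14.9 and 27.4 against 0.933 to 1.18 in uninjured axons (log2 4.38 ± 0.29, adjusted p = 7.45e-06). *Nars2*, the enzyme for the same amino acid in mitochondria, read 0.158, 0.152 and 0.173 against 0.893 to 1.57 (log2 -2.64 ± 0.30, adjusted p = 0.000109) and lay below the 1st percentile of the presumed silent genes. Neither gene's neuron arrays overlapped the uninjured ones. *Vars1* (log2 -0.17 ± 0.17, adjusted p = 0.404) and *Farsb* (0.18 ± 0.27, adjusted p = 0.565), which load valine and phenylalanine, were the lowest of the 22 cytosolic synthetases and did not pass. Of the factors, the lowest were *Eef1b2* (ratios 0.576, 0.354 and 0.629, adjusted p = 0.249) and *Eef1g* (0.741, 0.696 and 0.692, adjusted p = 0.429), both subunits of the exchange factor for elongation factor 1. Their uninjured arrays reached down to 0.246 and 0.338, in each case in array 1, and both passed toward axons without uninjured arrays 1 to 3 (adjusted p = 0.0334 and 0.0498). The initiation factor genes *Eif1ax* and *Eif4a1* were 22.4-fold and 18.1-fold higher in neurons.

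Of the 42 measured ribosomal protein genes, from 79 listed, 5 passed and lay below the 1st percentile of the presumed silent genes. *Rpl21*, of the large subunit, read 0.225, 0.118 and 0.318 in neurons against 0.675 to 1.05 in uninjured axons (log2 -2.30 ± 0.45, adjusted p = 0.00212). *Rps28*, of the small subunit, read 0.344, 0.115 and 0.370 against 0.871 to 1.44 (log2 -2.03 ± 0.56, adjusted p = 0.0112). In both genes all neuron arrays lay below all uninjured arrays, and neuron array 2 was lowest. The remaining 3, *Rpl35* (0.354, 0.137 and 0.413), *Rpl22* (0.359, 0.189 and 0.398) and *Rpl30* (0.331, 0.333 and 0.301), were chosen after their values were seen and likewise did not overlap the uninjured arrays. With the presumed silent genes centred on 0, *Rps28* (adjusted p = 0.100), *Rpl35* (adjusted p = 0.102) and *Rpl22* (adjusted p = 0.0638) no longer pass. At the upper end *Rpl6* read 5.33, 2.54 and 5.47 against 0.115 to 1.67 and did not pass (log2 2.07 ± 1.14, adjusted p = 0.140, or 0.00563 without uninjured arrays 1 to 3), and *Rpl3* read 3.77, 2.02 and 3.84 (log2 1.62 ± 0.59, adjusted p = 0.0367). *Rpl3* did not pass without neuron array 1 (adjusted p = 0.0836) or array 3 (adjusted p = 0.0811). Probe sets of ribosomal protein genes may also read transcripts of processed pseudogenes.

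**Figure D3:**
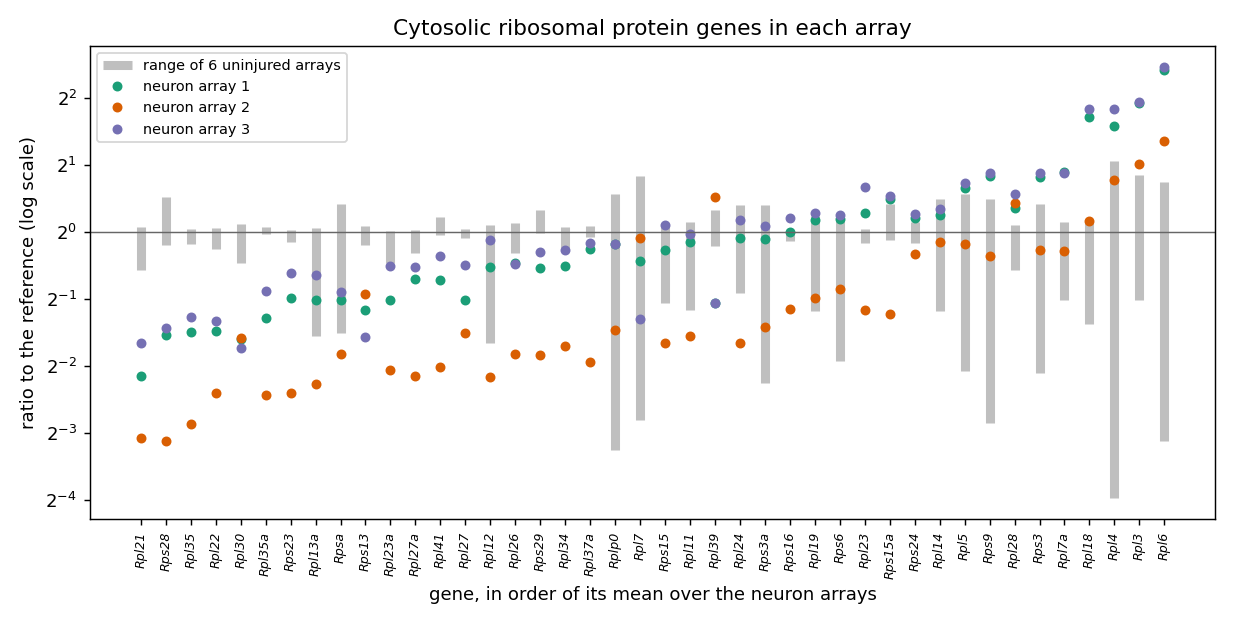
The 42 measured cytosolic ribosomal protein genes (horizontal axis, in order of their mean) with the ratio to the reference in each neuron array (points, logarithmic vertical axis to base 2) and the range of the 6 uninjured arrays (grey bars). Neuron array 2 is the lowest neuron array in 37 of the 42 genes, and the uninjured range reaches far below 1 for several genes, such as *Rpl6* at 0.115.

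The first transcribed bases are shown for ribosomal protein genes because messages of this family are known to start with a C followed by a pyrimidine tract, through which their translation is controlled together. Windows of 30 bases, 15 on each side of the annotated start, come from RefSeq on assembly GRCr8 and run 5′ to 3′ on the strand of the gene. Capitals mark the unbroken run of C or T that covers the annotated first base. The 6 lowest ribosomal genes with a RefSeq entry are followed by the 2 highest, and then by the 2 highest glycolysis genes. They lie at chr12:13386139-13386168 (*Rpl21*), chr7:15311319-15311348 (*Rps28*), chr3:43165907-43165936 (*Rpl35*), chr5:168117946-168117975 (*Rpl22*), chr11:81235007-81235036 (*Rpl35a*), chr2:23814502-23814531 (*Rps23*), chr12:41011676-41011705 (*Rpl6*), chr7:113507976-113508005 (*Rpl3*), chr1:95993247-95993276 (*Gpi*) and chr5:166002852-166002881 (*Eno1*). *Rpl22*, *Rps23* and *Eno1* are on the plus strand and the others on the minus strand.
Rpl21: ttcctttccgccggggcagccatcttccag
Rps28: gcatcccctgctcacgtgactcctctccgc
Rpl35: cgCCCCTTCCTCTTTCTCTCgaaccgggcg
Rpl22: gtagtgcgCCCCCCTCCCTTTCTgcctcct
Rpl35a: gcgggtcttgCCTTCCTCTTTCCgccatct
Rps23: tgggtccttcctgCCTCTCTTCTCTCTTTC
Rpl6: tatttttacatcactagatggcgggtgaaa
Rpl3: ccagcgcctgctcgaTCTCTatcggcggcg
Gpi: tactgacttgctgcgCgctgccgctcctct
Eno1: tccacgcgggagtgaggcccctaggccgcg

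A run of at least 8 C or T over the first base, searched on the strand of the gene only, was present in 15 of 37 ribosomal protein genes with a RefSeq entry (40.5%). Of all 11733 measured genes with an entry, 4.20% had one. None of 13 glycolysis genes and none of 32 complex I genes had such a run, and 2 of 59 mitochondrial ribosomal protein genes (3.39%) did. Where a gene had several entries, the longest run counted. Within the ribosomal genes, the 15 with a run had a median log2 ratio of -0.61 and the 22 without one of -0.50, with overlapping ranges of -1.88 to 1.39 and -2.30 to 2.07. The match describes letters around an annotated start, and a run that does not cover that base was not counted. In the windows of *Rpl21* and *Rps28* unmarked runs of C or T lie near the annotated start. Genes without a match can therefore not be read as genes without the tract.

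Energy metabolism split between soluble enzymes and the respiratory chain. All 14 glycolysis enzymes and 16 of 17 citric acid cycle enzymes passed as higher in neurons, against 14 of 34 subunits of complex I (median log2 1.08), 9 of 23 of complexes II to IV (0.21) and 8 of 16 of ATP synthase (1.58). The shares for complex I (41.2%) and complexes II to IV (39.1%) are close to that of all genes. Toward axons, however, 0 of 34 and 0 of 23 passed, against 23% of all genes. The median SD over the neuron arrays was 0.76 and 0.72 in these lists, against 0.22 for all genes. The citric acid cycle list exceeded complex I by 1.85, 2.12 and 1.90 in the 3 neuron arrays (mean 1.96 ± 0.14, SD, n = 3) and complexes II to IV by 2.51, 2.90 and 2.48 (mean 2.63 ± 0.23, SD). Without neuron array 2, 25 subunits of complex I passed instead of 14, and 5824 of all 14217 genes instead of 5249. Without neuron array 1 or 3, 5 subunits of ATP synthase passed instead of 8, and the median of complexes II to IV fell to -0.02 or -0.06.

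Subunits of the same respiratory complex differed widely. In complex I, *Ndufs3*, a core subunit, read 29.5, 13.9 and 31.9 against 0.740 to 1.59 in uninjured axons (log2 4.56 ± 0.51, adjusted p = 9.07e-05), and *Ndufs1*, another core subunit, read 10.2, 9.51 and 14.2. The accessory subunit *Ndufa1* read 0.756, 0.263 and 1.04 against 0.825 to 1.39 and did not pass (adjusted p = 0.292). The first pair stood clear of the uninjured arrays and *Ndufa1* overlapped them; these are the highest and one of the lowest of the 34 subunits, and core and accessory subunits were not compared. In complexes III and IV, *Uqcrfs1*, the Rieske iron-sulfur protein, was 13.9-fold higher in neurons, while *Cox5a* read 0.544, 0.776 and 0.327 (adjusted p = 0.132, or 0.0445 without neuron array 2) and *Cox7a2l*, a protein of supercomplexes, read 0.649, 0.381 and 0.580 (adjusted p = 0.232, or 0.0333 without uninjured arrays 1 to 3). In ATP synthase, the catalytic beta subunit *Atp5f1b* read 23.3, 15.7 and 22.6 (log2 4.34 ± 0.44, adjusted p = 5.36e-05). The small subunit *Atp5f1e* of the same head read 0.539, 0.249 and 0.658 against 0.951 to 1.23 (log2 -1.17 ± 0.43, adjusted p = 0.0400). That call was lost without uninjured array 4 (adjusted p = 0.0516), and the value lies within the range of presumed silent genes. *Atp5mk*, a small membrane subunit, read 0.547, 0.247 and 0.744 and did not pass (adjusted p = 0.0609), but passed toward axons without neuron array 2 (adjusted p = 0.0204) or array 3 (adjusted p = 0.0125).

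**Figure D4:**
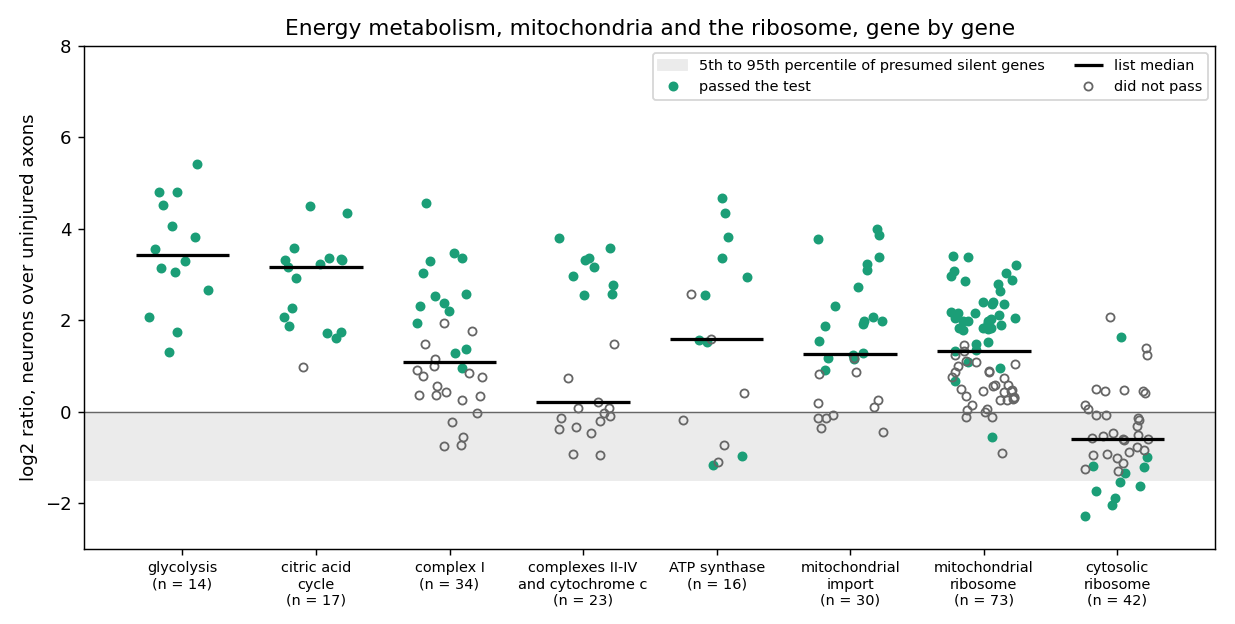
Log2 ratio of neurons over uninjured axons (vertical axis) for each measured gene of 8 lists (horizontal axis, n genes each); filled points passed the test, open points did not, black lines are list medians and the shaded band is the 5th to 95th percentile of presumed silent genes. Points are spread sideways for display, and the list median falls from 3.43 for glycolysis to 0.21 for complexes II to IV and -0.61 for the cytosolic ribosome.

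Within glycolysis the values ran from *Gpi* (48.2, 31.3 and 52.2, log2 5.42 ± 0.45) and *Eno1* (29.6, 21.5 and 34.1) to the rate-setting kinases *Hk1* (3.01, 3.09 and 3.92) and *Pfkm* (2.48, 2.39 and 2.57). The probe sets of both kinases disagreed in sign, from -0.49 to 3.95 for *Hk1* and from -0.91 to 2.82 for *Pfkm*. In the citric acid cycle *Idh3b* (27.0, 13.8 and 30.3) and *Dld* (21.6, 12.5 and 31.3), both parts of dehydrogenases, were highest, and *Sucla2*, a subunit of succinyl-CoA ligase, did not pass (2.09, 1.75 and 2.11, adjusted p = 0.0510) but did without uninjured array 4 (adjusted p = 0.0348) or neuron array 2 (adjusted p = 0.0466). Genes for import of proteins into mitochondria passed as higher in neurons in 19 of 30 cases (63.3%, against 36.9% of all genes). The receptors and pore parts *Tomm5* (20.4, 8.64 and 22.8) and *Tomm20* (18.3, 7.74 and 22.2) stood at the top, and *Timm8b*, a small carrier of the intermembrane space, read 0.961, 0.348 and 1.41 against 0.477 to 1.38 (adjusted p = 0.668).

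Neuron array 2 was lower than the other neuron arrays in many functions, to differing degrees. Over all genes it differed from the mean of arrays 1 and 3 by a median of -0.10 on the log2 scale. The median difference was -1.31 for complex I, -1.27 for the cytosolic ribosomal proteins, -1.21 for complexes II to IV, -1.05 for ATP synthase, -1.01 for mitochondrial ribosomal proteins and -0.92 for the proteasome. Other lists that were high in neurons also lay below all genes, among them mitochondrial import (-0.77), the citric acid cycle (-0.61), cholesterol synthesis (-0.59) and glycolysis (-0.56). Array 2 was the lowest neuron array in all 34 complex I genes, all 16 ATP synthase genes and 37 of 42 ribosomal genes, against 50.4% of all genes. For synaptic vesicle genes the median difference was -0.14, for channels -0.10, and for the presumed silent genes 0.14. Uninjured array 1 was the lowest of 6 in 28 of 42 ribosomal genes (66.7%), 21 of 34 complex I genes (61.8%) and 14 of 23 genes of complexes II to IV (60.9%). For ATP synthase this share was 56.25%, for the proteasome 40.6% and for mitochondrial ribosomal proteins 38.4%, against 18.6% of all genes. Lists with a smaller difference in neuron array 2 also had high shares, such as the chaperonin with prefoldin (61.5%, difference -0.76) and the motors (48.6%, difference -0.24). The hybridisation controls read highest in neuron array 2 (1.10) and in uninjured array 1 (1.18), and their part in these differences was not tested.

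Most proteasome, chaperonin and signalosome genes were higher in neurons, and autophagy genes less uniformly so. Proteasome subunits passed in 30 of 32 cases. *Psma3*, of the core ring, read 36.6, 32.4 and 40.8, and *Psmd6*, of the regulatory lid, read 37.82, 20.004 and 39.60, while *Psmb5*, the chymotrypsin-like catalytic subunit, read 1.43, 1.29 and 1.56 (adjusted p = 0.136) over 3 probe sets from -0.03 to 1.55. The chaperonin genes *Cct7* (44.2, 26.8 and 46.8) and *Cct2* (25.6, 15.8 and 30.1) stood apart from *Pfdn1* (1.14, 0.506 and 1.43, adjusted p = 0.908), a subunit of the prefoldin complex that hands proteins to it. In the COP9 signalosome, which removes Nedd8 from ubiquitin ligases, 8 of 9 genes passed, and *Cops7b* read 1.09, 0.980 and 1.15 (adjusted p = 0.638). Autophagy genes lay lower, with 16 of 27 passing as higher in neurons and a median of 1.08. The proteasome median exceeded theirs by 2.17, 1.59 and 2.25 in the 3 arrays (mean 2.00 ± 0.36, SD, n = 3). *Atg3*, which attaches the autophagy tag to lipid, was 13.9-fold higher in neurons, and *Atg10*, the matching enzyme for the *Atg12* branch, read 0.663, 0.608 and 0.684 against 0.948 to 1.14 (log2 -0.62 ± 0.17, adjusted p = 0.0120) but turned to log2 0.17 with the presumed silent genes centred on 0.

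Lists of membrane traffic genes had medians above that of all genes. *Atp6ap2* (54.4, 24.6 and 64.6) and *Atp6ap1* (40.5, 34.1 and 45.3), accessory proteins of the vacuolar pump, led a list in which 17 of 18 passed. The pump subunit *Atp6v0a2* read 1.02, 1.10 and 1.11 and did not pass (adjusted p = 0.552). Lysosomal genes passed in 27 of 36 cases as higher in neurons (75%, against 36.9% of all genes). In 4 they passed as higher in axons (11.1%, against 23% of all genes). *Psap*, the precursor of the saposins, read 26.9, 23.5 and 37.5, and the protease *Ctsb* read 29.6, 29.0 and 27.5. The related proteases *Ctss* (0.647, 0.626 and 0.427, adjusted p = 0.0247) and *Ctsc* (0.583, 0.542 and 0.592, adjusted p = 0.0116), which are known from immune cells, were higher in axons, within the range of presumed silent genes. Rab GTPases, which label membranes, passed in 26 of 45 cases, with *Rab1a* (41.96, 31.12 and 48.19) and *Rab2a* (36.8, 23.9 and 39.7) of the early secretory route at the top and *Rab38* (0.508, 0.569 and 0.465) of pigment granules at the bottom. Coat proteins passed in 15 of 18 cases, and of the genes of the endoplasmic reticulum 30 of 37 did. The 2 lowest there were channel subunits, *Sec61a1* (1.06, 1.08 and 0.988, probe sets from -1.21 to 1.20) and *Sec61g* (1.26, 0.547 and 1.89, adjusted p = 0.843).

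Microtubule and neurofilament genes passed in 31 of 36 cases (median log2 2.71), motors in 22 of 35 (2.05), synaptic vesicle genes in 23 of 40 (1.20), glutamate and GABA receptor genes in 17 of 42 (0.33) and voltage-gated channels in 11 of 41 (0.18). The receptor share of 40.5% is near the 36.9% of all genes, and the channel share of 26.8% is below it. *Septin7* (54.5, 30.4 and 71.6), a filament protein, and *Ywhah* (44.2, 42.1 and 47.8), a 14-3-3 protein, were among the highest. Of their relatives, *Septin11* read 1.68, 1.52 and 1.59 and *Septin4* 1.18, 1.14 and 1.31, the latter without passing (adjusted p = 0.291). *Tuba8* (0.896, 1.04 and 1.08), a tubulin of restricted expression, and *Prph* (1.26, 0.737 and 1.22), the peripheral neuron intermediate filament, were at the axonal level and did not pass. The kinesins of fast axonal transport *Kif5c* (0.424, 0.354 and 0.481, log2 -1.26 ± 0.66, adjusted p = 0.123) and *Kif1a* (0.621, 0.385 and 0.637, adjusted p = 0.194) had the lowest motor values. Their uninjured arrays reached from 0.279 to 1.33 and from 0.378 to 1.37 and overlapped the neuron arrays, and *Kif5c* passed toward axons without uninjured arrays 1 to 3 (adjusted p = 0.00336). *Syt2* (log2 -1.36 ± 0.24), *Grin2c* (-0.97 ± 0.17) and *Grik3* (-0.80 ± 0.16) were higher in axons, all within the range of presumed silent genes. With neuron array 2 left out, 8 receptor genes passed as higher in axons instead of 5.

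From a list of messages described in axons by other studies, 28 of 39 passed toward neurons (71.8%, against 36.9% of all genes, median log2 2.04). Toward axons 4 passed (10.3%, against 23% of all genes), or 2 without neuron array 1 or 3. Of single neuronal genes, *Mapt*, the axonal tau protein, read 25.92, 17.79 and 24.97 against 0.877 to 1.21, and *Map2*, of dendrites, read 9.37, 6.94 and 10.2 against 0.534 to 1.62. Both stood clear of the uninjured arrays, but the 2 probe sets of *Map2* lay at log2 0.01 and 6.24. *Gap43*, of growth cones, read 2.30, 2.46 and 2.07 (log2 1.18 ± 0.39, adjusted p = 0.0260; probe sets -0.11 and 2.48) and lost its call without neuron array 1 (adjusted p = 0.0531).

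Lists of nuclear machinery had medians below that of glycolysis and above that of all genes. Polymerase II and Mediator genes passed toward neurons for 29 of 40 (median log2 1.48), nuclear pore and importin genes in 33 of 49 (1.51), spliceosome genes in 26 of 35 (1.54) and RNA-binding proteins in 28 of 36 (2.11). *Hnrnph1*, a splicing regulator, read 39.49, 42.65 and 42.004, the polymerase subunit *Polr2b* 14.5, 11.3 and 16.1, and the pore protein *Nup88* 14.8, 9.35 and 17.2. The small proteins of splicing complexes differed among themselves: *Snrpd3* (21.2, 8.39 and 24.8) and *Sf3b5* (20.8, 6.80 and 22.6) were 16.4-fold and 14.7-fold higher in neurons, and *Snrpe* read 0.832, 0.346 and 0.983 without passing (adjusted p = 0.277). Of 7 measured long noncoding RNAs of the nucleus, 4 were higher in neurons, with the maternally expressed *Meg3* at 16.3, 14.7 and 19.7 against 0.904 to 1.07 and *Miat* at 7.64, 7.20 and 7.37. *H19*, an imprinted RNA of fetal tissues (0.342, 0.458 and 0.302, adjusted p = 0.00115), and *Xist*, which coats the inactive X chromosome (0.697, 0.683 and 0.632, adjusted p = 0.0230), were higher in axons, within the range of presumed silent genes, and *Xist* turned to log2 0.21 with those genes centred on 0.

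Cell type markers were compared list by list. Cortical neuron markers passed toward neurons for 15 of 19 genes (78.9%, against 36.9% of all genes, median log2 1.77), among them the interneuron peptide *Sst* (56.1, 16.4 and 69.2). Toward axons 2 passed, *Gad2* (0.5128, 0.5504 and 0.6387), of inhibitory neurons, and *Tbr1* (log2 -0.75 ± 0.27, adjusted p = 0.0385). Both lay within the range of presumed silent genes. These calls numbered 1 without neuron array 1 or 3, and 0 with the presumed silent genes centred on 0. Astrocyte markers passed in 13 of 15 cases (median 2.45; array medians 2.35, 2.34 and 2.65), above the neuron markers by 0.65, 0.77 and 0.56 (mean 0.66 ± 0.11, SD, n = 3). The filament gene *Gfap* read 16.4, 14.4 and 12.5, whereas *Slc1a2*, a glutamate transporter of mature astrocytes, read 0.738, 0.714 and 0.641 (adjusted p = 0.0587) and *Gjb6*, a gap junction gene, 0.941, 1.04 and 0.988 (adjusted p = 0.935). Oligodendrocyte lineage markers passed toward neurons for 5 of 14 genes (35.7%, near the 36.9% of all genes) and toward axons for 2 (14.3%, against 23% of all genes). *Olig1*, a transcription factor of the lineage, read 16.3, 23.4 and 21.7 against 0.933 to 6.23 (log2 4.34 ± 0.85, adjusted p = 0.00219), and *Bcas1*, of early myelinating cells, 13.3, 9.90 and 9.79 (adjusted p = 0.00340). The myelin genes *Opalin* (0.352, 0.450 and 0.266) and *Mog* (0.352, 0.496 and 0.325) were higher in axons, within the range of presumed silent genes. How much of any excess in neurons comes from glial RNA was not tested. In such pooled RNA, fewer cells of a type and less RNA per cell cannot be told apart.

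Microglia and macrophage markers lay at the level of the presumed silent genes. None of 16 passed as higher in neurons. As higher in axons 15 passed (93.75%, against 23% of all genes and 65.6% of the presumed silent genes). This was 1 with the presumed silent genes centred on 0. The list median was log2 -0.95, with a highest value of -0.67 for *P2ry12* (0.673, 0.714 and 0.519), which turned to 0.12 under that scaling. The median differed from that of the presumed silent genes by -0.21, -0.09 and -0.31 in the 3 arrays. Vascular and fibroblast markers passed as higher in axons in 9 of 17 cases (52.9%, against 23% of all genes, median -0.46). As higher in neurons 1 passed (5.88%, against 36.9% of all genes). The latter count was 0 without neuron array 3 or with the median gene set to 0, and 2 without neuron array 2 or uninjured array 4. With the presumed silent genes centred on 0, 4 were higher in neurons and 0 in axons, at a median of 0.33. In this list *Pdgfra*, a receptor of mesenchymal cells and of oligodendrocyte precursors, read 9.11, 12.6 and 5.54 but reached 12.8 in uninjured array 4, and did not pass (adjusted p = 0.0542) but did without that array (adjusted p = 0.000353) and with the presumed silent genes centred on 0 (adjusted p = 0.0197). The proliferation gene *Pcna* (12.3, 5.90 and 12.5) likewise reached 10.2 in uninjured array 4 and passed without it (adjusted p = 0.0506 with it and 0.000994 without) or without neuron array 2 (adjusted p = 0.0429). Of 20 dividing cell markers 3 were higher in neurons (15%, against 36.9% of all genes). This count was 5 without uninjured array 4 or neuron array 2 and 1 without neuron array 1 or 3. Toward axons 4 passed (20%, near the 23% of all genes). The lowest were *Mki67* (log2 -1.65 ± 0.29, adjusted p = 0.00125) and *Kif23* (log2 -1.30 ± 0.29, adjusted p = 0.00406), the latter within the range of presumed silent genes.

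The genes that follow the 6 largest excesses were of mixed function. *Bhlhe22*, a transcription factor of cortical projection neurons, read 57.8, 93.2 and 58.9 against 0.571 to 1.26 in uninjured axons (log2 6.09 ± 0.45, adjusted p = 1.07e-05). It was highest in neuron array 2. *Pgrmc1*, a haem-binding membrane protein, read 81.0, 43.0 and 82.0, and *Sptan1*, the spectrin of the submembrane skeleton, read 64.2, 45.6 and 80.6. *Btg1* (58.0, 49.5 and 67.7), an antiproliferative factor, *Tspyl1* (49.0, 52.3 and 66.6) and *Elmod1* (43.0, 53.0 and 72.4) followed, and *Cpe*, the enzyme that trims neuropeptide precursors, read 66.0, 35.5 and 66.9. None of these overlapped the uninjured arrays. *Ppp1cc*, a catalytic subunit of protein phosphatase 1, read 52.5, 48.8 and 62.9 but 13.4 in uninjured array 4, which gave it the wide error of 1.23 (log2 5.77, adjusted p = 0.00334). *Fabp7*, of radial glia and astrocytes, reached 14.7 in the same uninjured array.

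At the axonal end, 104 genes that passed lay below the 1st percentile of the presumed silent genes, or 0.732% of all genes. Of these, 93 rest on a single probe set, where 4525 of all 14217 genes have more than 1. Ribosomal protein genes, 42 of all 14217, account for 5. A further 4 are on the presumed silent lists, a number set by the cutoff at the 1st percentile of those 331 genes. After the 6 largest differences came *Nars2*, given above, and *Ccr6*, a chemokine receptor of lymphocytes, which read 0.229, 0.160 and 0.166 against 0.671 to 1.07 (log2 -2.46 ± 0.29, adjusted p = 0.000117). *Mrc1* (0.189, 0.228 and 0.142), the mannose receptor of macrophages, *Gmfg* (0.173, 0.192 and 0.219), a cytoskeletal regulator of blood cells, and *Lilrb2* (0.190, 0.265 and 0.170), a leukocyte receptor, were of the same order. *Sned1* (0.170, 0.257 and 0.186), a matrix protein, *Adam3a* (0.187, 0.332 and 0.156), of sperm, *Itgb6* (0.247, 0.229 and 0.190), of epithelia, and *Tubb1* (0.218, 0.340 and 0.155), the tubulin of platelets, completed it. In *Gmfg* the lowest uninjured array, 0.238, came close to the neuron arrays, and with the presumed silent genes centred on 0 it did not pass (adjusted p = 0.0886). Each of these genes rests on 1 probe set.

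Different probe sets for the same gene often disagreed. Of 4525 genes with more than 1 probe set, 539 (11.9%) had probe sets past the threshold in opposite directions, where 55.9% of all probe sets passed in either direction. In 651 every probe set was higher in neurons and in 249 every one was higher in axons. The median gap between the lowest and highest probe set of a gene was 1.22 on the log2 scale, and in 1377 genes (30.4%) it was over 2. Of 614 probe sets called higher in axons in the 539 genes, 582 (94.8%) lay within the range of presumed silent genes. The gene value is a mean, so such a gene can look close to the axonal level when a single probe set is far above it.

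The genes with the widest gaps were these. *Tpm3*, a tropomyosin with many isoforms, had 12 probe sets from log2 -4.20 to 4.14 and a gene value of 1.17 ± 0.17. *Slc6a17*, a vesicular amino acid transporter, had 5, from -0.95 to 7.23, the highest reading 152, 93.5 and 240 in the neuron arrays. *Cnr1*, the cannabinoid receptor of axon terminals, had a probe set at 98.7, 79.9 and 87.0 and another at 0.770, 0.507 and 0.604. In *Rfx3*, a factor of ciliated cells, the pair lay at log2 -3.26 and 3.79, and the gene value of 0.26 did not pass (adjusted p = 0.342). *Sptbn1* (-0.79 to 6.21) and *Tnks2* (-1.80 to 5.11) showed the same spread. For *Tubb3* (-1.25 and 3.48) the gene value of 1.12 turned to -1.25 when probe sets with less specific names were left out.

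**Figure D5:**
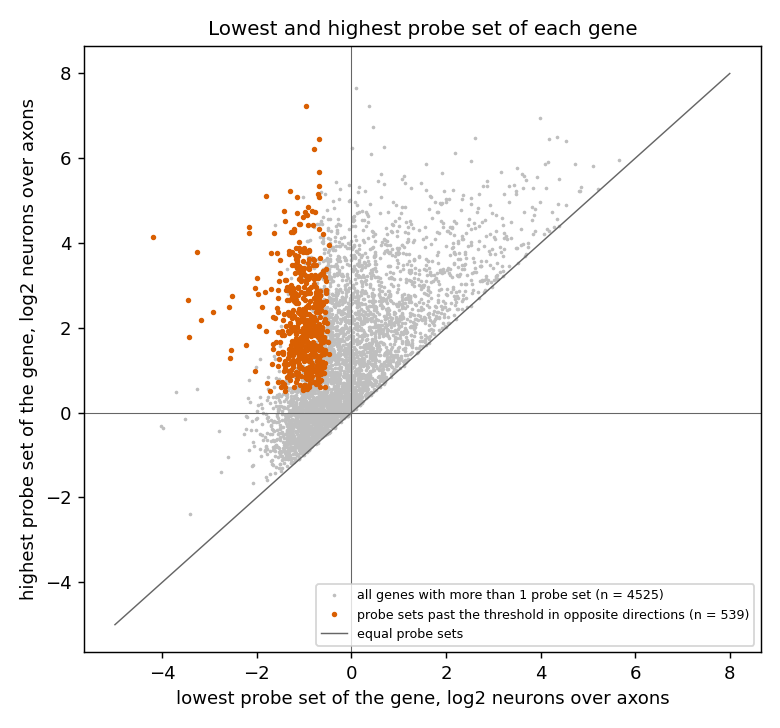
For each of 4525 genes with more than 1 probe set, the log2 ratio of neurons over axons of its lowest probe set (horizontal axis) and of its highest (vertical axis), one point per gene. Orange points are the 539 genes whose probe sets passed in opposite directions, and the diagonal marks equal probe sets.

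Probe sets that could not be named behaved differently from the rest. The 10216 without a single gene symbol had a median log2 ratio of -0.47, with 16.5% higher in neurons and 39.0% higher in axons. Among probe sets with 1 symbol, whose median was 0.16, 34.3% and 21.8% passed in these directions. P-values rest on the spread of 3 neuron arrays and of the uninjured arrays within their ratio sets, with the unmeasured reference counted as 1 array.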

How the data were processed

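The authors deposited a table of linear ratios for 31099 probe sets and 13 arrays, and the submitters' processing notes name RMA but no version or settings. What the neuron ratio was divided by is not given in the sources used here. The medians of uninjured arrays 1 to 3 and of arrays 4 to 6 are 1 in 100% of rows, within 0.0001. Differences between these sets are therefore lost. Each array was matched to its sample by title.

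Log2 ratios of 20826 probe sets with 1 symbol in the array's annotation (436 had several, 9780 none) were averaged to 14217 genes. Identifiers of 20758 probe sets were found in a GRCr8 gene table, with 0 symbols changed. Neurons were tested with limma 3.58.1 (lmFit, eBayes, R 4.3.3) against the reference, counted as 1 array, with each ratio set as its own mean, and 6 residual degrees of freedom. Figures were drawn with matplotlib 3.10.9 in Python 3.11.15.

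The comparison, the 48 gene lists and the naming rule were chosen with earlier results of these data known. The rule took the 16 highest and 16 lowest genes past the threshold without overlap, the 2 highest and 2 lowest of each list (1 for silent lists), the 6 widest opposite probe sets and fixed genes. Some are not repeated here. Alternatives changed the scaling, the reference error, the source of the spread, probe sets and arrays. Leaving out uninjured array 4 was chosen after seeing the data. Replicate numbers were not taken to pair the arrays in the main fit. Deviations of same-numbered arrays correlated across genes at -0.17, -0.07 and 0.19. Differently numbered arrays correlated at -0.22 to 0.23, so these values cannot decide whether the numbers pair the arrays.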

Additional observations from a re-analysis of the deposited data

Results flagged for a closer look

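In 34 of 128 values examined, 1 of the 6 measured uninjured arrays lay apart from the other 5 by the gap that Dixon's criterion sets at the 95% level. That criterion flags about 1 of 20 groups of independent values by chance. Here the rate does not apply, since the 6 values are 2 sets of 3 whose medians are fixed at 1, and the flags are a description. Array 1 was the array apart in 18, array 4 in 14, and arrays 2 and 5 in 1 each. No explanation of this pattern was tested.

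Array 1 was lowest for *Rpl21* (0.675), *Rpl35* (0.885), *Rpl22* (0.839), *Rpl6* (0.115), *Eef1b2* (0.246), *Eef1g* (0.338), *Cox7a2l* (0.313) and *Timm8b* (0.477). It was also lowest for *Psmb5* (0.688), *Pfdn1* (0.409), *Kif5c* (0.279), *Snrpe* (0.794), *Gap43* (0.530), *Adam3a* (0.668) and the 5′ probe set of GAPDH (0.599). It was highest for *Rps28* (1.44), *Atp5f1e* (1.23) and the hybridisation controls (1.18).

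Array 4 was highest for *Fabp7* (14.7), *Ppp1cc* (13.4), *Pdgfra* (12.8), *Pcna* (10.2), *Olig1* (6.23), *Bcas1* (4.09), *Polr2b* (2.83), *Ndufs1* (2.62), *Gpi* (2.14), *Sptbn1* (1.59), *H19* (1.28) and *Sf3b5* (1.23). It was lowest for *Ccr6* (0.671) and *Septin4* (0.738). Array 2 was highest for *Tubb1* (1.33) and array 5 for *Tomm5* (2.51).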

How the results depend on the processing

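The 5249 genes higher in neurons and 3271 higher in axons depended most on the scaling. With the presumed silent genes centred on 0 the counts were 8728 and 278, and at 2-fold or more 7048 and 46. The 278 genes were all among the 3271, which a shift that raises every neuron array by 0.68 to 0.89 largely determines in advance. With the median gene at 0, 2297 genes were at least 2-fold higher in axons instead of 1304. With the spread taken from the neuron arrays alone, 2035 genes were higher in axons. On single probe sets, of which 31042 were tested, the counts were 8820 and 8523, and at 2-fold or more 7754 and 4509. Leaving out 1 neuron array gave 4770 to 5824 genes higher in neurons and 2711 to 3500 higher in axons, at 2-fold or more 3924 to 4651 and 1080 to 1593, and 76 to 103 below the silent range. With the replicate number as a block, 5956 and 3984 genes passed, although the labels do not say whether the numbers pair the arrays. The silent scaling adds 0.79 to the mean of each gene, which turned the sign of 11 of 117 named genes. Of these, *Atg10* (0.17), *Xist* (0.21) and *P2ry12* (0.12) had been called, and *Vars1* (0.62) and *Gjb6* (0.77) newly passed. In all, 15 of 29 named genes lost a call toward axons and 14 gained one toward neurons. Without less specific probe sets *Tubb3* turned to -1.25. The unstated reference and the number of arrays limit all values.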
